A study of Homo sapiens with 2 samples.

Results

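The distal 28 Mb of chromosome 14q between 70 and 98 Mb carried 3049 deposited H4K5ac peaks in normoxia and 6444 in hypoxia, out of 120033 and 258195 peaks in the whole lists. Members were all peaks of either list whose summit lay from 70 Mb to below 98 Mb of chromosome 14 (hg38), and the rest of the chromosome held 3832 and 7777 peaks. The study profiled FaDu, a squamous carcinoma line of the human hypopharynx in long use as an established head and neck cancer model, by chromatin immunoprecipitation and 75 bp single-end sequencing. The comparison had 1 library a side, from cells in normoxia and from cells held at 1% oxygen over 18 h. Sample labels give histone H4 acetylated at lysine 5 as the target, while the series design text names another histone mark. The culture protocol mentions knockdown of METTL4, which no label assigns to either library.

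The block was selected on the numbers of strong peaks per 1 Mb bin in the 2 lists, a strong peak being one whose deposited −log10 q-value was at least 10. Numbers, heights, widths and overlaps of the 2 lists are therefore given as a description, with no test, and 1 library per group allows none. Intervals in parentheses are 95% intervals and cover counting error only. At the low edge peaks went on beyond the block: the nearest hypoxia summits lay at 70001031 inside and 69999834 outside the low edge, with −log10 q-values of 11.7 and 20.2. At the high edge the nearest hypoxia summits lay at 97977997 inside and 98063292 outside, with −log10 q-values of 32.5 and 3.26. The normoxia order there was the reverse: summits at 97978102 inside and 98069805 outside had −log10 q-values of 1.39 and 41.0.

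Acetylation of lysine 5 on the H4 tail is placed on newly made histones before their deposition and on chromatin by acetyltransferases of the p300/CBP and MYST families. It is read by bromodomain proteins and is typically found at promoters and enhancers of transcribed genes. Gene deserts without active enhancers usually carry little of it. The cell label was checked with marker genes: 9 of 10 epithelial and squamous genes had a peak at a gene end in both libraries and the other, TP63, in hypoxia only. Of 10 markers of other lineages, 0 had one in both libraries, 6 had one in hypoxia only and 4 in neither. Among all 19974 protein-coding genes, 69.3% had such a peak in each library, 11.7% had one in hypoxia alone and 17.9% had none. A gene-end peak in hypoxia alone thus did not tell these lineages apart.

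Promoter sequence is shown first for 8 genes of the block that stand for the patterns described below. Each run is the 250 bases before the RefSeq start (GRCh38.p14), written 5′ to 3′ on the gene's own strand. Capitals mark matches, on either strand, to ACGTG or its close relative GCGTG (core letters bound by hypoxia-inducible factors), to TGANTCA (the AP-1 site), to CCAAT (the box bound by NF-Y), to GGGCGG (the GC box of Sp factors) and to TATAAA (the TATA box). FOS is shown because the widest normoxia peak of the block lay on it, with summits 165 bp (normoxia) and 169 bp (hypoxia) upstream of its start:
FOS promoter, chr14:75278578-75278827, plus strand: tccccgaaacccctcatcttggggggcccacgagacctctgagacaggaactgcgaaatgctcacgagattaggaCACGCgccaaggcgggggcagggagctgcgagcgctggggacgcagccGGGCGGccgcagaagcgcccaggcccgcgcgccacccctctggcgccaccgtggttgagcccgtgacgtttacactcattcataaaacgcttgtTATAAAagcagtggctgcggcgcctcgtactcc
The next 3 lines are promoters with a hypoxia peak and no normoxia peak, and KCNK10 holds none of the motifs:
PROX2 promoter, chr14:74876146-74876395, minus strand: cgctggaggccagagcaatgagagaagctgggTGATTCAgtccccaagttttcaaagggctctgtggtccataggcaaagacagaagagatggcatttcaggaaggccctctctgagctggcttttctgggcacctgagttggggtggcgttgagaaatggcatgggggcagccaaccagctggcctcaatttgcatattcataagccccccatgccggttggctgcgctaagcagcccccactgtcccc
TCL1B promoter, chr14:95686176-95686425, plus strand: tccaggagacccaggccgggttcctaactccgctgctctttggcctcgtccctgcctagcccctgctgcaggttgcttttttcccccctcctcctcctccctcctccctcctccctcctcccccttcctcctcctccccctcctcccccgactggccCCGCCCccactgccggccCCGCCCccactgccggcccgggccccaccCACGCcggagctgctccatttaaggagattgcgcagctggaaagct
KCNK10 promoter, chr14:88326913-88327162, minus strand: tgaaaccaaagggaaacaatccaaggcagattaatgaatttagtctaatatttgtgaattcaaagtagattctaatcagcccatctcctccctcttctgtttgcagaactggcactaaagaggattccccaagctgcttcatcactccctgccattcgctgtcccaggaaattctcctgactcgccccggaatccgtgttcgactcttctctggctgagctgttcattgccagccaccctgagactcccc
LRRC74A is the promoter with a normoxia peak and no hypoxia peak, and it holds 2 AP-1 matches:
LRRC74A promoter, chr14:76826158-76826407, plus strand: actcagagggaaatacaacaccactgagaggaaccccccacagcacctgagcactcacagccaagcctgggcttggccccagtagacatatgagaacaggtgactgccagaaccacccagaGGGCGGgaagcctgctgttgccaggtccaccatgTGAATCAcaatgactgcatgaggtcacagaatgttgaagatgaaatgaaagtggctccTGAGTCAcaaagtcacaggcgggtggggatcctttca
The last 3 lines are promoters of genes with some of the highest folds at a gene end in both libraries, of which MLH3 holds none of the motifs:
MLH3 promoter, chr14:75051468-75051717, minus strand: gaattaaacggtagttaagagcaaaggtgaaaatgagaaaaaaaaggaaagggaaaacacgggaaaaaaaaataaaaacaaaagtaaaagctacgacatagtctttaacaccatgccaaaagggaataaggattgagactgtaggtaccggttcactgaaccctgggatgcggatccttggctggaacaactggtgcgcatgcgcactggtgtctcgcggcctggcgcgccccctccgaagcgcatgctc
GPATCH2L promoter, chr14:76151672-76151921, plus strand: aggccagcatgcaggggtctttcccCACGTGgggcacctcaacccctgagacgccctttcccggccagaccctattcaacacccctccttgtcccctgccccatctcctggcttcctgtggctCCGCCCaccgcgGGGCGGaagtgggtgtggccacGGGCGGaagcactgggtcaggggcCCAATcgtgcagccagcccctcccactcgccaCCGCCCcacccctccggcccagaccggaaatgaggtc
SPATA7 promoter, chr14:88385407-88385656, plus strand: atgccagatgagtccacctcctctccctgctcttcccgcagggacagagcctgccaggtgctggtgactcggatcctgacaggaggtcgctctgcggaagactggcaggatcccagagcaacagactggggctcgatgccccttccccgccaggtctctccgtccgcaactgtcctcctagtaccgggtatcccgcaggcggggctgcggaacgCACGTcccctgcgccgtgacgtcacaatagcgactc
In these 3 genes the summits lay downstream of the start in both libraries, at 214 and 192 bp in MLH3, 197 and 201 bp in GPATCH2L and 273 and 203 bp in SPATA7 (normoxia and hypoxia).

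Seen as a whole, the block was densely covered in both libraries, with 109 peaks per Mb in normoxia and 230 in hypoxia, against 61.0 and 124 per Mb in the rest of chromosome 14. Peaks covered 48.8 and 88.7 kb per Mb of the block, against 28.2 and 47.2 kb per Mb elsewhere on the chromosome. The hypoxia list was longer everywhere, so the ratio of all peaks, hypoxia to normoxia, was 2.11 in the block (2.02 to 2.21), 2.03 in the rest of chromosome 14 (1.95 to 2.11) and 2.16 on the other chromosomes. Strong peaks stood apart from this: 492 in normoxia and 1435 in hypoxia, a ratio of 2.92 (2.63 to 3.24). The same ratio was 1.68 in the rest of chromosome 14 (807 against 1359 peaks, 1.54 to 1.84) and 1.6 on the other chromosomes (1.58 to 1.63). Strong peaks were 16.1% of the block's normoxia peaks and 22.3% of its hypoxia peaks, whereas their share ran the other way in the rest of chromosome 14, at 21.1% and 17.5%.

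The size of that difference depended on where strength was cut. At a −log10 q-value of at least 5 the ratio was 3.58 in the block, 2.61 in the rest of chromosome 14 and 2.23 on the other chromosomes. At 20 or more it was 1.66, 1.38 and 1.55. At 50 or more the order turned, to 1.52 in the block (142 and 216 peaks), 1.91 in the rest of chromosome 14 and 2.38 on the other chromosomes. At 100 or more, 55 normoxia and 106 hypoxia peaks gave 1.93 in the block (1.38 to 2.72), against 5.28 in the rest of chromosome 14 (25 and 132 peaks) and 6.58 on the other chromosomes (520 and 3420 peaks, 6.0 to 7.23). The block thus held 9.17% of all such normoxia peaks (55 of 600), beside 2.54% of normoxia peaks of any strength. It held 2.90% of all such hypoxia peaks (106 of 3658, 2.38 to 3.49), near its 2.50% of hypoxia peaks of any strength. Of the block's peaks at 100 or more, 42 normoxia and 68 hypoxia peaks lay within 1 kb of a listed transcription start. When the 29967 strongest peaks of each list were taken, which raised the lowest −log10 q-value in hypoxia to 16.9, the block held 492 and 605 of them, a ratio of 1.23.

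**Figure D1:**
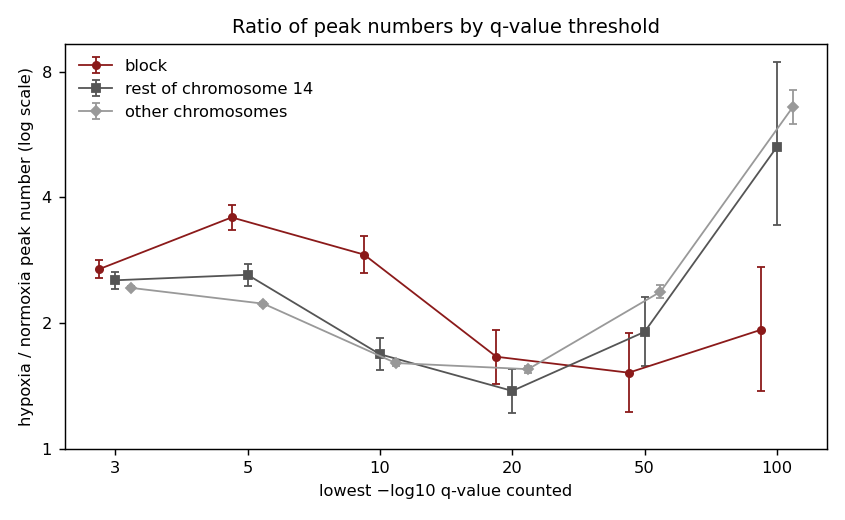
Ratio of hypoxia to normoxia peak numbers (vertical axis, with 95% counting intervals) against the lowest −log10 q-value admitted (horizontal axis) for the block, the rest of chromosome 14 and the other chromosomes. The block lies above the others at 5 and 10 (3.58 and 2.92) and below them at 50 (1.52 against 1.91 and 2.38) and 100 (1.93 against 5.28 and 6.58).

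Reads behind the peaks were estimated from the deposited fold and p-value, which together fix the pileup (reads over the summit) and the local background if p is a Poisson tail. The median background of peaks in the block was 8.26 reads in normoxia and 7.89 in hypoxia, against 4.78 and 4.04 in the rest of chromosome 14. Relative to the median of the whole list these were 1.63 and 1.89 times as high. Median pileups were 25 and 29 reads in the block and 18 and 19 in the rest of the chromosome. Folds were correspondingly a little lower inside: the medians were 2.94 and 3.24, against 3.23 and 3.54. The lowest background of each list, which reflects depth, was 3.13 reads in normoxia and 3.24 in hypoxia. Strong peaks of the block sat on a median background of 21.1 reads in normoxia and 11.6 in hypoxia, with pileups of 91 and 52. DNA copy number was not analysed here, and the part of local background and depth in the strong peak ratio was not tested.

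Along the block the median background per 1 Mb bin ran from 3.31 to 15.4 reads in normoxia and from 3.29 to 16.1 in hypoxia. All 28 bins held more hypoxia than normoxia peaks, with 28 to 157 peaks per bin in normoxia (median 117.5) and 92 to 330 in hypoxia (median 246.5). Strong peaks ran from 0 to 39 per bin in normoxia (median 16.5) and from 5 to 99 in hypoxia (median 50.5). In 23 of the 28 bins strong hypoxia peaks were at least 2 times as many as strong normoxia peaks, beside 31.5% of the 2910 bins of the genome and 24 of 62 in the rest of chromosome 14. These numbers chose the block. With equal numbers of the strongest peaks per list the count was 6 of 28. The largest difference fell in the bin from 93 to 94 Mb, which holds ITPK1, BTBD7 and UNC79, with 26 strong peaks in normoxia and 99 in hypoxia.

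**Figure D2:**
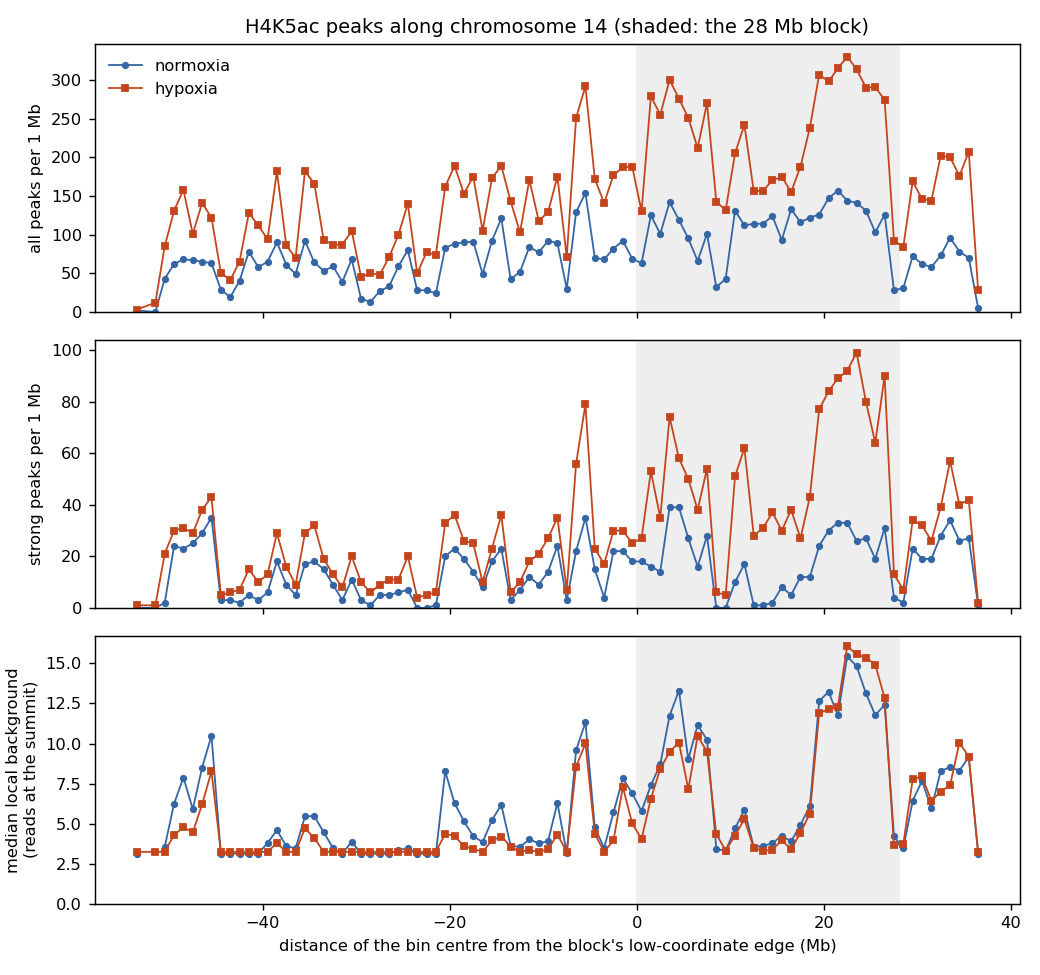
Peaks, strong peaks and median local background per 1 Mb bin (vertical axes) against distance from the low edge of the block in Mb (horizontal axis), for normoxia and hypoxia. Strong hypoxia peaks reach 99 in 1 bin while strong normoxia peaks stay at 39 or fewer, and the background falls to about 4 reads in part of the middle of the block and at its end.

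Most of the peaks lay in the longest stretches, of 8 Mb each, at either side of the block. From 70 to 78 Mb, which includes FOS, NUMB and MLH3, there were 812 normoxia and 1973 hypoxia peaks, 197 and 389 of them strong (ratio 1.97). Per Mb these were 101.5 and 247 peaks, beside 109 and 230 over the whole block, so this stretch was not denser than the block in normoxia. From 89 to 97 Mb, which includes FOXN3, ATXN3, the serpin cluster, DICER1 and VRK1, there were 1075 and 2419 peaks, or 134 and 302 per Mb. That second stretch had 223 and 675 strong peaks (ratio 3.03) and the highest median background, 13.1 reads in normoxia and 13.5 in hypoxia. The division into stretches was made after the values were seen.

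The gene-poor stretch from 82 to 87 Mb, which holds the cell adhesion gene FLRT2, had the highest strong ratio of all stretches with a strong normoxia peak. It had 578 peaks in normoxia and 813 in hypoxia, a ratio of 1.41, yet only 17 of the normoxia peaks were strong against 164 of the hypoxia peaks, a ratio of 9.65 (5.84 to 17.0). Each of its 5 bins showed it, with 1 against 28, 1 against 31, 2 against 37, 8 against 30 and 5 against 38 strong peaks. Its background was close to the lowest of either list, with medians of 3.79 reads in normoxia and 3.48 in hypoxia, and its median pileups were 15 and 18 reads. Even so it carried 116 and 163 peaks per Mb. In the 10 bins of the block with 2 or fewer protein-coding genes the median was 114 normoxia and 156.5 hypoxia peaks per bin, against 29 and 70 in the 21 such bins of the rest of chromosome 14. With equal numbers of the strongest peaks per list the stretch had 17 and 45, a ratio of 2.65 (1.49 to 4.93).

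The smaller stretches varied. From 78 to 80 Mb, a stretch taken up by NRXN3, there were 75 and 274 peaks and 0 and 11 strong ones. From 80 to 82 Mb, which includes DIO2, CEP128 and TSHR, the strong numbers were 27 and 113 (ratio 4.19). From 87 to 89 Mb, with GALC, KCNK10 and SPATA7, they were 24 and 70 (ratio 2.92). Beyond VRK1 the signal fell away: the bin from 96 to 97 Mb held 126 and 274 peaks at median backgrounds of 12.4 and 12.8 reads, and the next bin held 28 and 92 at 4.21 and 3.64. In steps of 100 kb, the median background went from 12.9 reads in normoxia and 15.1 in hypoxia just below 97 Mb to 7.67 and 4.62 just above it.

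By position relative to genes, strong peaks near starts had similar numbers in both libraries, and most of the surplus in hypoxia lay elsewhere. Within 1 kb of a listed start there were 137 strong normoxia and 150 strong hypoxia peaks, a ratio of 1.09 (0.863 to 1.39), beside 1.14 in the rest of chromosome 14. Elsewhere in gene spans there were 200 and 718, a ratio of 3.59 (3.07 to 4.22) beside 1.93. Outside spans but within 100 kb of one there were 121 and 346, a ratio of 2.86 (2.32 to 3.55) beside 1.90. More than 100 kb from any protein-coding gene there were 34 and 221, a ratio of 6.5 (4.52 to 9.62) beside 2.54 (1.92 to 3.40) in the rest of the chromosome. With equal numbers of the strongest peaks per list, the distal ratio was 2.03 (34 and 69 peaks, 1.33 to 3.16) beside 0.957 in the rest of the chromosome. Under that setting the other classes had 137 and 133 peaks near starts, 200 and 256 elsewhere in spans and 121 and 147 outside spans within 100 kb. At the cut-off of 10, promoter peaks were 27.8% of strong normoxia peaks and 10.5% of strong hypoxia peaks in the block. Their share was also lower in hypoxia in the rest of chromosome 14, at 298 of 807 and 340 of 1359 strong peaks. With equal numbers of the strongest peaks per list, promoter peaks were 137 of 492 and 133 of 605 in the block. The start table misses 20 of the 178 genes, among them VRK1 and ATXN3, whose promoter peaks were counted in spans.

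Distal peaks of any strength numbered 726 in normoxia and 1148 in hypoxia, a ratio of 1.58 that was below the 2.14 of the rest of chromosome 14. Their strong share was 4.68% in normoxia (3.26 to 6.48) and 19.3% in hypoxia (17.0 to 21.7), against 9.45% and 11.2% in the rest of the chromosome. The median pileups of these distal peaks were 16 and 19 reads at backgrounds of 4.02 and 3.76. The lowest pileup of a strong distal peak of the block was 28 reads in normoxia and 23 in hypoxia.

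**Figure D3:**
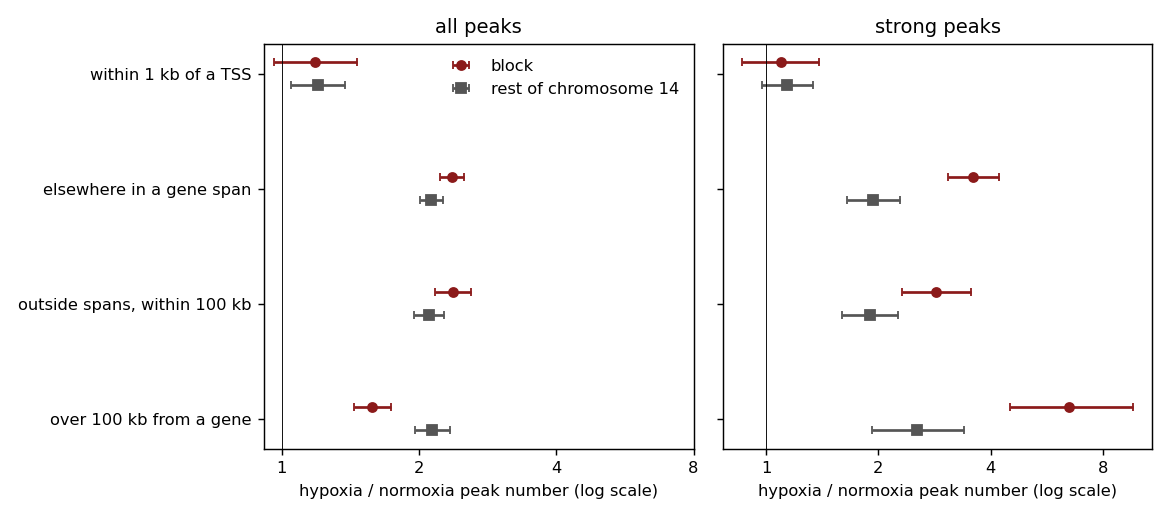
Ratio of strong hypoxia to strong normoxia peaks (with 95% counting intervals) by position relative to protein-coding genes, for the block and for the rest of chromosome 14. Promoter peaks lie near 1 in both (1.09 and 1.14), and peaks over 100 kb from a gene lie at 6.5 in the block and 2.54 in the rest.

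Peak positions were largely shared, in the sense that most normoxia peaks had a hypoxia counterpart. In the block 72.6% of normoxia peaks were overlapped by a hypoxia peak (2213 of 3049, 71.0 to 74.2), beside 66.7% in the rest of chromosome 14. In the other direction 35.2% of hypoxia peaks were overlapped by a normoxia peak (2266 of 6444, 34.0 to 36.3), beside 33.7%, the hypoxia list being the longer. Of the 492 strong normoxia peaks, 483 (98.2%) were overlapped by a hypoxia peak of any strength. Of the 1435 strong hypoxia peaks, 1029 (71.7%, 69.3 to 74.0) were overlapped by a normoxia peak, beside 83.3% in the rest of chromosome 14 (81.2 to 85.2) and 87.2% on the other chromosomes. The 406 strong hypoxia peaks without a partner lay in gene spans away from starts (234, 57.6%), outside spans within 100 kb (91, 22.4%), over 100 kb from genes (74, 18.2%) and within 1 kb of a start (7, 1.72%). Over hypoxia peaks of any strength in the block these shares were 54.0%, 25.1%, 17.8% and 3.09%. Of all 1435 strong hypoxia peaks, 718 lay in gene spans away from starts, and the other shares were 24.1%, 15.4% and 10.5%. Strong hypoxia peaks without a partner were thus rarer near starts than strong hypoxia peaks as a whole (1.72% against 10.5%). The same pattern held outside the block, so it was not particular to it. On the other chromosomes the shares near starts were 5.55% against 27.9%. In the rest of chromosome 14 they were 8 of 227 peaks against 340 of 1359.

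Where 1 normoxia and 1 hypoxia peak overlapped only each other, 1922 pairs could be set side by side. Their median pileups were 27 reads in normoxia and 33 in hypoxia, and the hypoxia pileup was the higher in 1396 pairs (72.6%). The median ratio was 1.22, against 1.21 over the 2153 pairs of the rest of chromosome 14. The median backgrounds of the pairs were 9.14 and 7.73 reads. Summits of a pair lay a median of 63 bp apart, and 90% lay within 225 bp.

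Peaks in the block were slightly narrower in hypoxia when all were counted, with median widths of 326 bp in normoxia and 302 bp in hypoxia (quartiles 267 to 474 and 243 to 430). In the one-to-one pairs the medians were 354 and 389 bp, but within pairs there was almost no difference. The median ratio of widths within a pair, hypoxia to normoxia, was 1.006, beside 0.967 in the rest of chromosome 14. The hypoxia peak was the narrower in 949 of 1922 pairs (49.4%). Strong peaks had median widths of 891 and 510 bp, against 818 and 595 bp in the rest of chromosome 14. The narrowest deposited peaks of the block were 245 bp in normoxia and 215 bp in hypoxia. Strong peaks covered 467 and 881 kb of the block, so by length the ratio was 1.88, beside 1.30 in the rest of the chromosome.

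The block's peaks of the highest −log10 q-value lay at ends of broadly expressed genes and were shared. By −log10 q-value the highest normoxia peaks lay at VRK1, a nuclear kinase of chromatin and cell division (96797286 to 96798370, 237), and at PSMC1, an ATPase subunit of the proteasome (90256431 to 90257378, 234). In hypoxia they lay at PSMC1 (90256460 to 90257172, 275) and at MLH3, a DNA mismatch repair protein (75050478 to 75051544, 273). The other peaks among the 5 highest were at TMED10, a cargo receptor of the early secretory pathway, and SNW1, a splicing and transcription co-factor, in both lists, at MLH3 in normoxia and at BTBD7 in hypoxia. By fold, MLH3 led with 11.4 in normoxia and 16.5 in hypoxia. VRK1 had 11.0 and 11.1, PSMC1 10.6 and 12.9, GPATCH2L 10.4 and 14.2, and SPATA7, a protein of the photoreceptor cilium, 10.2 and 13.9. COX16, an assembly factor of cytochrome c oxidase, had 8.85 and 13.7, and SNW1 9.24 and 13.0. Each fold is measured against the local background within 1 library, so a pair of folds is not a measure of change.

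The widest normoxia peak spanned 2805 bp over FOS (75276751 to 75279555) and was overlapped by 2 hypoxia peaks. The widest hypoxia peak spanned 3126 bp at IRF2BPL (77025582 to 77028707) and was overlapped by 3 normoxia peaks. Peaks at the bradykinin receptor gene BDKRB2 (2550 and 2240 bp) and at the polyadenylation factor CPSF2 (2465 and 2494 bp) were among the 5 widest in both lists. ENTPD5 (2141 bp) and PPP4R3A (2118 bp) completed the list in normoxia, and peaks in LOC124903406 (2385 bp) and near CCDC88C (2099 bp) in hypoxia.

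The strongest peaks found in hypoxia only lay away from genes. The first, at 80389882 to 80390378, had a −log10 q-value of 32.2 and lay 86892 bp from CEP128. The others were at 85204653 to 85205112 (31.1, 325231 bp from FLRT2), at 81829330 to 81830073 (27.3, 296023 bp from SEL1L), at 74980706 to 74981760 (26.4, 21813 bp from EIF2B2) and at 86905295 to 86906014 (25.8, 1027350 bp from GALC). In normoxia only, the first was inside ADAM20 at 70546883 to 70547463, with a −log10 q-value of 23.3. The next lay in VRK1 at 96821650 to 96822173 (17.4), near YLPM1 (14.4), in STON2 (14) and in PPP4R4 (13.1).

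At the level of genes, most of the 178 protein-coding genes of the block were marked in both libraries, a mark being a peak overlapping the 1000 bp either side of an end of the gene span. Such a peak can belong to the start, the end or a neighbour. There were 147 genes with a mark in both (82.6%, beside 69.3% of 19974 genes), 22 in hypoxia only (12.4%, 7.91 to 18.1, beside 11.7%), 2 in normoxia only (1.12%, beside 1.08%) and 7 in neither (beside 17.9%). In the rest of chromosome 14 (427 genes) the shares were 74.9%, 9.84%, 1.41% and 13.8%. The share in hypoxia only was near that of all genes. With strong peaks alone in both lists, or with a peak anywhere in the span as the mark, 6 genes were marked in hypoxia only. Over the narrower promoter windows, 17 of 158 genes had a peak in hypoxia only (10.8%, beside 8.58%) and 1 in normoxia only (beside 1.32%). Genes marked in neither included ADAM20, PAPLN, ACOT2, SYNDIG1L, NRXN3 and ASB2. Listed starts can lie inside the span, and PAPLN, ACOT2 and NRXN3 did have a promoter-window peak in both libraries. Of the 22 genes with a gene-end mark in hypoxia only, 12 had a promoter-window peak in hypoxia only and 4 (CEP128, IFI27, DIO2 and TC2N) in both libraries, while 4 had no such peak and 2 had no listed start.

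The 22 genes with a mark in hypoxia only included several tissue-restricted genes and had modest peaks. High folds were at ADAM21, a testis-expressed metalloprotease relative (4.95), TC2N (4.54), PROX2, a homeobox gene (3.98), and TCL1B, of the T-cell leukaemia gene family (3.78). Lower folds were at KCNK10, a potassium channel of the tandem pore family (3.48), GPR65, a proton-sensing receptor (3.47), and LOC105370706 (3.42). The −log10 q-values were 14.5 at TCL1B and 10.9 at PROX2. In normoxia only, LRRC74A had a fold of 2.36 and ACOT6, an acyl-CoA thioesterase gene, 2.24.

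Most gene spans held more hypoxia than normoxia peaks. Counted by summit, gene spans of the block held 1638 peaks in normoxia and 3694 in hypoxia. Hypoxia peaks were the more numerous in 155 of 178 spans (beside 63.5% of all genes), the fewer in 4 (IRF2BPL, GALC, GPR65 and PAPOLA, named after their values were seen) and equal in 19. Strong hypoxia peaks were more numerous in 116 spans (beside 29.7%), fewer in 7 (beside 4.7%) and equal in 55. Spans in the block are long, with a median of 42239.5 bp against 21149 bp in the rest of chromosome 14, so they can hold more peaks.

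The largest differences in strong peaks were mostly in long genes. FOXN3, a forkhead repressor, had 10 strong peaks in normoxia and 38 in hypoxia, of 56 and 145 peaks in all. CEP128, a centriole protein, had 7 and 33 (of 70 and 110), and SIPA1L1, a regulator of Rap GTPases, 7 and 30 (of 64 and 124). UNC79, a subunit of the sodium leak channel complex, had 2 and 25 (of 54 and 99). ITPK1, an inositol phosphate kinase, had 9 and 27 (of 27 and 66), and RPS6KA5, a kinase that phosphorylates histone H3, had 8 and 23 (of 45 and 79). DPF3, a BAF complex subunit with histone-binding domains, had 7 and 20 (of 32 and 80), and the potassium channel gene KCNK13 had 1 and 12 (of 10 and 40). All 8 had more strong hypoxia peaks, which is how they were chosen. Among spans of at least 50 kb, hypoxia peaks were densest in SPTLC2, of sphingolipid synthesis (43.4 per 100 kb), ATXN3 (42.1), RBM25, a splicing factor (41.3), BTBD7 (40.8) and NUMB (40.4).

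**Figure D4:**
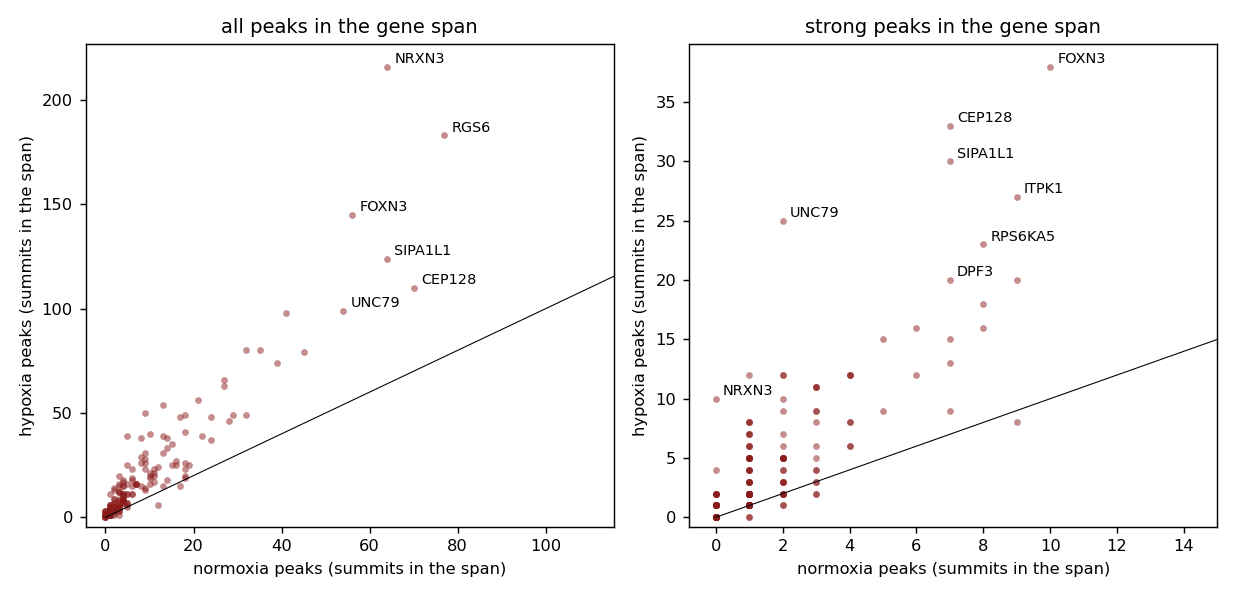
Peaks (left) and strong peaks (right) within each protein-coding gene span of the block, normoxia on the horizontal and hypoxia on the vertical axis, 1 point per gene. In the right panel 116 genes lie above the line of equality, 55 on it and 7 below it, and FOXN3 is highest at 10 and 38.

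Of the AP-1 and immediate early genes, 2 of 3 were marked in both libraries. The gene lists that follow were drawn up with results of these data known. Their counts are a description, to be read beside the shares over all genes, which were 69.3% with a mark in each library, 11.7% with one in hypoxia alone and 17.9% with none, and the strong ratio of 2.92 in the block. The fold at FOS, a subunit of the AP-1 transcription factor, was 5.46 in normoxia against 6.35 in hypoxia, with −log10 q-values of 134 and 177, and JDP2, an AP-1 repressor, 5.80 and 6.97. BATF, an AP-1 family member of lymphocytes, had a mark in hypoxia only (3.26). The 3 spans together held 8 normoxia and 20 hypoxia peaks, 5 and 7 of them strong.

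Among 8 genes of oxygen, acid and vessel signalling, 5 had a mark in each library, 2 in hypoxia alone and 1 in no library (beside 69.3%, 11.7% and 17.9% of all genes). The vascular growth factor gene PGF had folds of 3.0 and 3.60, VASH1, which encodes vasohibin, 5.09 and 6.20, and the growth factor gene TGFB3 3.59 and 4.90 (normoxia and hypoxia). The acid-sensing receptor gene GPR65 was marked in hypoxia only. The neuronal oxygen-binding globin gene NGB was marked in hypoxia only, at a fold of 2.43. The spans of the 8 genes held 40 and 94 peaks and 18 and 23 strong ones.

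Genes of genome maintenance and RNA processing were all marked in both libraries (8 of 8, beside 82.6% of the genes of the block and 69.3% of all), with 86 and 135 peaks in their spans and 15 and 51 strong ones. ALKBH1, a nucleic acid dioxygenase, had folds of 5.54 and 8.14, TDP1, which repairs topoisomerase adducts, 5.75 and 8.52, and DICER1, the nuclease that makes mature miRNAs, 5.42 and 6.81. All 9 mitochondrial genes were also marked in both, with 13 and 34 peaks in their spans but 8 and 9 strong ones. DLST, of the tricarboxylic acid cycle, had folds of 7.88 and 9.93, GLRX5, of iron-sulphur cluster assembly, 5.76 and 7.76, and NDUFB1, of respiratory complex I, 5.51 and 6.39 in a peak shared with the neighbouring CPSF2.

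In the group of ubiquitin and protein folding genes 9 of 10 were marked in both libraries and ASB2 in neither, with 48 and 123 peaks and 14 and 32 strong ones in their spans. SEL1L, an adaptor of endoplasmic reticulum-associated degradation, had folds of 7.99 and 12.8, and the deubiquitinase gene ATXN3 5.75 and 8.28. Other genes of the fixed list were marked in both as well. NUMB, a Notch antagonist, stood at 5.92 and 8.78. FOXN3 stood at 8.21 and 11.1 and CCDC88C, a Dishevelled-binding Wnt regulator, at 6.52 and 6.69.

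The serpin cluster, a run of secreted protease inhibitor genes near 94 Mb, had a mark in both libraries at 6 of 9 genes and in hypoxia only at SERPINA5, SERPINA6 and SERPINA11. Of those 6, only SERPINA1 had a promoter-window peak in both libraries. SERPINA4 and SERPINA12 had one in hypoxia only, and SERPINA3, SERPINA9 and SERPINA10 in neither. SERPINA1, which encodes alpha-1 antitrypsin, had folds of 3.46 and 4.59 and SERPINA3, which encodes antichymotrypsin, 4.15 and 6.34. The highest of the cluster was at SERPINA9, with 6.83 and 9.18. The 9 spans held 13 and 41 peaks, 3 and 12 of them strong.

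Among 15 neural and endocrine genes 7 had a mark in each library, 7 had one in hypoxia alone and 1 had none (beside 69.3%, 11.7% and 17.9% of all genes), with 278 and 772 peaks in their spans and 20 and 107 strong ones. CHGA, a secretory granule protein gene, had a mark in hypoxia only at a fold of 2.19. TSHR, the thyrotropin receptor gene, had folds of 6.83 and 12.2. NRXN3, a presynaptic adhesion gene with a span of 1697919 bp, had no mark at either end, 64 and 216 peaks in its span and 0 and 10 strong ones. The homeobox gene GSC was marked in both libraries by overlapping peaks (5.93 and 5.79), and the lymphoid gene TCL1A by peaks at opposite ends of its span (2.18 and 3.80).

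The remaining lists were short. The interferon-induced genes IFI27L1 and IFI27L2 were marked in both libraries and IFI27 in hypoxia only, by a peak of fold 2.57 at its high end, with 4 and 11 peaks in the 3 spans. A promoter window of IFI27 had a peak in both libraries, and its span held 2 strong peaks in each. Of 4 lymphoid genes 1 was marked in both libraries, 2 in hypoxia alone and 1 (ASB2) at no end, with 11 and 31 peaks. The 11 genes with spans of at least 200 kb held 562 and 1251 peaks and 61 and 229 strong ones, and 9 of them were marked in both libraries. At gene ends CEP128 was marked in hypoxia only and NRXN3 in neither, although promoter windows of each had a peak in both libraries.

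Promoter letters were counted over the 250 bases before each start on both strands, in 230 windows of the block and in 35116 windows of the whole table. ACGTG stood in 18.3% of the block's windows and 18.5% of all, GCGTG in 37.4% and 32.2%, CACGTG, which holds ACGTG on both strands, in 6.52% and 6.34%, and TGANTCA in 4.78% and 6.57%. CCAAT stood in 28.7% and 32.0%, GGGCGG in 52.6% and 42.6% and TATAAA in 8.26% and 10.7%. The windows with a peak in both libraries (165) had a median GC content of 64.0% and 21 CpG, and 38 of them (23%) held ACGTG. The windows with a peak in hypoxia only (23) had a median of 56.8% GC and 6 CpG, and 0 held ACGTG, as the printed PROX2 and KCNK10 promoters show. Over the whole table ACGTG stood in 23.2% of windows with a peak in both libraries and 18.3% of those with a peak in hypoxia only. A match describes letters in the window and says nothing of binding.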

How the data were processed

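H4K5ac ChIP-seq of FaDu cells was analysed from 2 peak lists that the authors deposited, 1 per library, so peaks were called separately. MACS2, SICER and hg38 are named per the submitters' processing notes, while their versions and settings, and whether a control was used, are not stated in any source used here. For each peak the authors deposited a summit, a score, a fold (a ratio to its local background) and the −log10 of its p-value and of its q-value. The deposited score was 10 times the −log10 p-value, rounded down, for 100% of normoxia and 99.998% of hypoxia peaks. The deposited lists include 144 and 29 peaks with a q-value above 0.05. Read totals were not analysed here, so the depth is known only through the derived background.

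The pileup and background were solved from the fold, taken as (pileup + 1) / (background + 1), and the Poisson p, and the pileup was whole within 0.02 for 100% of normoxia and 99.9992% of hypoxia peaks. Peaks were matched by an overlap of at least 1 bp. Gene spans of 19974 protein-coding genes and 35116 promoter windows came from RefSeq tables of GRCh38.p14 (hg38). The gene table gives spans only, so exons, introns and UTRs were not told apart, and coordinates are on hg38. Intervals are Clopper-Pearson, or its conditional form for ratios. Python 3.11.15, numpy 2.4.6, pandas 2.3.3, scipy 1.17.1 and matplotlib 3.10.9 were used, and the pileup solver and overlap counts were tested on simulated data.

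The block, the gene lists and the named genes were chosen with earlier results of these data known. The genes named were a fixed list of 33, the 8 spans with the largest difference in strong peaks, up to 8 genes marked in 1 library only per direction, the 5 highest folds per library and the 5 densest spans of at least 50 kb. Named peaks were, per library, the 5 of the highest −log10 q-value, the 5 widest and the 5 unshared ones of the highest −log10 q-value. Promoters were printed for FOS and the first genes of each class with a promoter peak. Other cut-offs, widths, overlaps, bins and list sizes were tried as alternatives. Some genes that this rule takes are not reported here. No sequence of distal peaks is given, since no genome was used here.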

Additional observations from a re-analysis of the deposited data

How the results depend on the processing

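No paired analysis was possible because each condition had 1 library and no test was made. The strong peak ratio of 2.92 became 3.58 at a −log10 q-value of at least 5, 1.66 at 20, 1.23 with equal numbers of strongest peaks and 1.88 by covered length. It was 2.96 for 72 to 96 Mb, 2.87 without the bin from 93 Mb and 2.68 without 82 to 87 Mb. The strong ratio over 100 kb from genes, 6.5, became 4.18 at a cut-off of 5, 3.23 at 20 and 2.03 with equal numbers. The ratio of all peaks, 2.11, became 1.28 with the hypoxia list limited to the length of the normoxia list, a setting that keeps every strong peak, 1.56 at widths of at least 245 bp and 1.90 with neighbouring peaks joined. The overlapped share of strong hypoxia peaks, 71.7%, became 64.7% when 50% of the peak had to be covered, 45.5% at a cut-off of 5, 96.9% at 20 and 33.0% against strong normoxia peaks only. The share of strong normoxia peaks, 98.2%, became 94.5%, 89.2%, 99.7% and 89.6% under the same settings and 96.1% against the limited list. The width difference, hypoxia minus normoxia, was -24 bp for all peaks, turned to 32 bp at widths of at least 245 bp and to 32 bp for shared peaks, and was -381 bp for strong peaks. The 22 genes marked in hypoxia only became 6 with strong peaks and 6 over whole spans. The 23 bins became 13 of 14 at 2 Mb and 6 with equal numbers of strongest peaks. The alternatives for distal peaks and those with equal numbers, covered length, without 82 to 87 Mb and promoter windows were chosen after seeing the data. The limited lists hold fewer hypoxia peaks by construction, and the cause of these changes was not tested. Distal peaks had median pileups of 16 and 19 reads in normoxia and hypoxia, the lowest strong ones had 28 and 23, and the part of depth in their strong ratio was not tested.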
